A study of Rattus norvegicus with 8 samples.

Results

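The cytosolic ribosomal protein genes encode the proteins of the ribosome that works in the cytoplasm, as distinct from the ribosome inside mitochondria. The members were the probe sets whose only gene symbol starts with Rpl or Rps followed by a digit, together with Rplp0, Rplp1, Rplp2 and Rpsa, and the kinases of ribosomal protein S6 (Rps6k genes) were left out. The rule used gene symbols and no measured value. It gave 63 of the 8799 probe sets on the array, for 43 of the 4737 genes with such an entry: 42 probe sets for 29 genes of the large subunit and 21 probe sets for 14 genes of the small subunit. Rplp1, Rplp2 and Rps27a had no probe set of their own symbol alone. The rule also took in the pseudogenes Rps2-ps1 and Rps4x-ps9 and the paralogues Rpl3l, Rps27l, Rpl19l4 and Rpl36al1. Ribosomal protein genes have many near-identical copies in the genome, so which copy a probe set measures is uncertain.

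A ribosome is built from a small subunit, which reads the messenger RNA, and a large subunit, which joins the amino acids. Each ribosome holds about 1 copy of most of these proteins, so cells make them in matched amounts, and their mRNAs are among the most abundant in most cells. These mRNAs are known for a run of pyrimidines at their 5′ end, the terminal oligopyrimidine (TOP) motif, through which the kinase mTOR controls their translation and, with the binding protein LARP1, their stability. Ligament fibroblasts secrete large amounts of collagen and depend on translation to do so.

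The tissue was rat medial collateral ligament, which runs along the inner side of the knee, collected at 3 weeks. RNA was hybridised to 8 arrays with 1 label, and each of 4 groups had 2 of them. Loaded control rats had sham surgery and bore weight on their hind legs. Loaded healing rats had the ligament disrupted on both sides and bore weight. Unloaded control rats had no sham surgery and were suspended by the tail, so that the hind legs carried no weight. Unloaded healing rats had the ligament disrupted on both sides and were suspended from 24 h after surgery. The title and labels pose the question of how unloading changes the healing of ligaments. Strain and age are not given in the labels, nor is whether paired arrays represent different rats, pooled rats or repeated runs. The p-values therefore measure the spread between arrays, which may be technical.

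The 5′ ends of these genes carried the TOP motif more often than those of other genes, although most did not hold it at the annotated start. The windows below were chosen to show it, 8 with the motif at the annotated start and 2 without it there. Of the latter, Rps10 held it within 5 bases of the start and Rps16 did not. Promoter sequences from RefSeq (rat assembly GRCr8) matched 36 of the 43 genes, and 7 were not matched. Each window below holds the 15 bases before the annotated start and the first 15 bases transcribed, 5′ to 3′ on the gene's strand. Capitals mark a C at the annotated start and the unbroken run of C or T that follows it, where at least 4 such bases follow.
Rplp0, stalk protein, chr12:46718376-46718405, minus strand: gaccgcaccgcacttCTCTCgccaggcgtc
Rpl19, large subunit, chr10:83519049-83519078, plus strand: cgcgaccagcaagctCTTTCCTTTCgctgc
Rpl31, large subunit, chr9:49143096-49143125, plus strand: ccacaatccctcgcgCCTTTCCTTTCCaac
Rpl22, large subunit, chr5:168117946-168117975, plus strand: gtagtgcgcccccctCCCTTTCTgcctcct
Rpl39, large subunit, chrX:121195882-121195911, minus strand: tcttctaatcgcgttCTTCCggcctgtcct
Rpl35a, large subunit, chr11:81235007-81235036, minus strand: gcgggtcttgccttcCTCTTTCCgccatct
Rps15, small subunit, chr7:10068101-10068130, minus strand: cgctgacaccgcttcCTTTTCCCagcagcc
Rps3a, small subunit, chr2:173827028-173827057, minus strand: gagttgtacttccgcCCTTTTggctctcag
Rps10, small subunit, no match at the start, chr20:5700730-5700759, minus strand: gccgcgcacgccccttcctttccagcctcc
Rps16, small subunit, no match at the start, chr1:92770643-92770672, plus strand: cctggaaaatcggtcggggtggccccaagc

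Exactly at the annotated start, 11 of the 36 windows (30.6%) held the motif, against 881 of all 33469 windows of the same kind (2.63%). Within 5 bases of the start, 17 (47.2%) held it, against 5704 (17.0%). The motif was searched on the gene's own strand only. It stood at the start of 9 of 26 large subunit genes and 2 of 10 small subunit genes. A match describes these letters at an annotated start and shows no regulation, and a missing match says only that the letters are not there.

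All 8 arrays had been scaled to nearly the same trimmed mean, and the ribosomal protein probe sets were among the brightest on 6 of them. The median intensity of the 61 members kept for the tests below was 5739 and 4496 for loaded controls, 3830 and 3587 for loaded healing, 527 and 564 for unloaded controls, and 6596 and 5366 for unloaded healing. The unloaded controls thus lay far below the other groups. The median member stood at a percentile of 95 to 97.2 among tested probe sets on the other 6 arrays and of 45.4 and 48.5 on the unloaded control arrays. Of these 61 members, 28 and 26 read under an intensity of 500 there, against 2 to 4 elsewhere. They took 1.70% and 1.79% of the summed signal there and 4.95% to 5.39% elsewhere.

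The unloaded control arrays also stood apart as a whole. Correlations were taken over all probe sets but the array's control ones, with dim probe sets included. These probe sets share arrays and are no replicates. Each unloaded control array correlated at 0.695 to 0.757 with arrays of other groups, whereas those 6 correlated at 0.822 to 0.894 with each other. Their actin control probe sets gave a 5′ to 3′ ratio of 0.964 and 0.634, and the remaining arrays gave 0.237 to 0.529. This ratio depends on how intact and how fully copied the RNA is. With the GAPDH controls it was 0.729 to 0.896 elsewhere, while the unloaded controls gave its highest value, 0.953, and its lowest, 0.712. The GAPDH ratio thus did not set these arrays apart. In each result below that rests on these arrays, the part played by such array differences was not tested. Unloading and the lack of sham surgery cannot be told apart between the control groups.

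**Figure D1:**
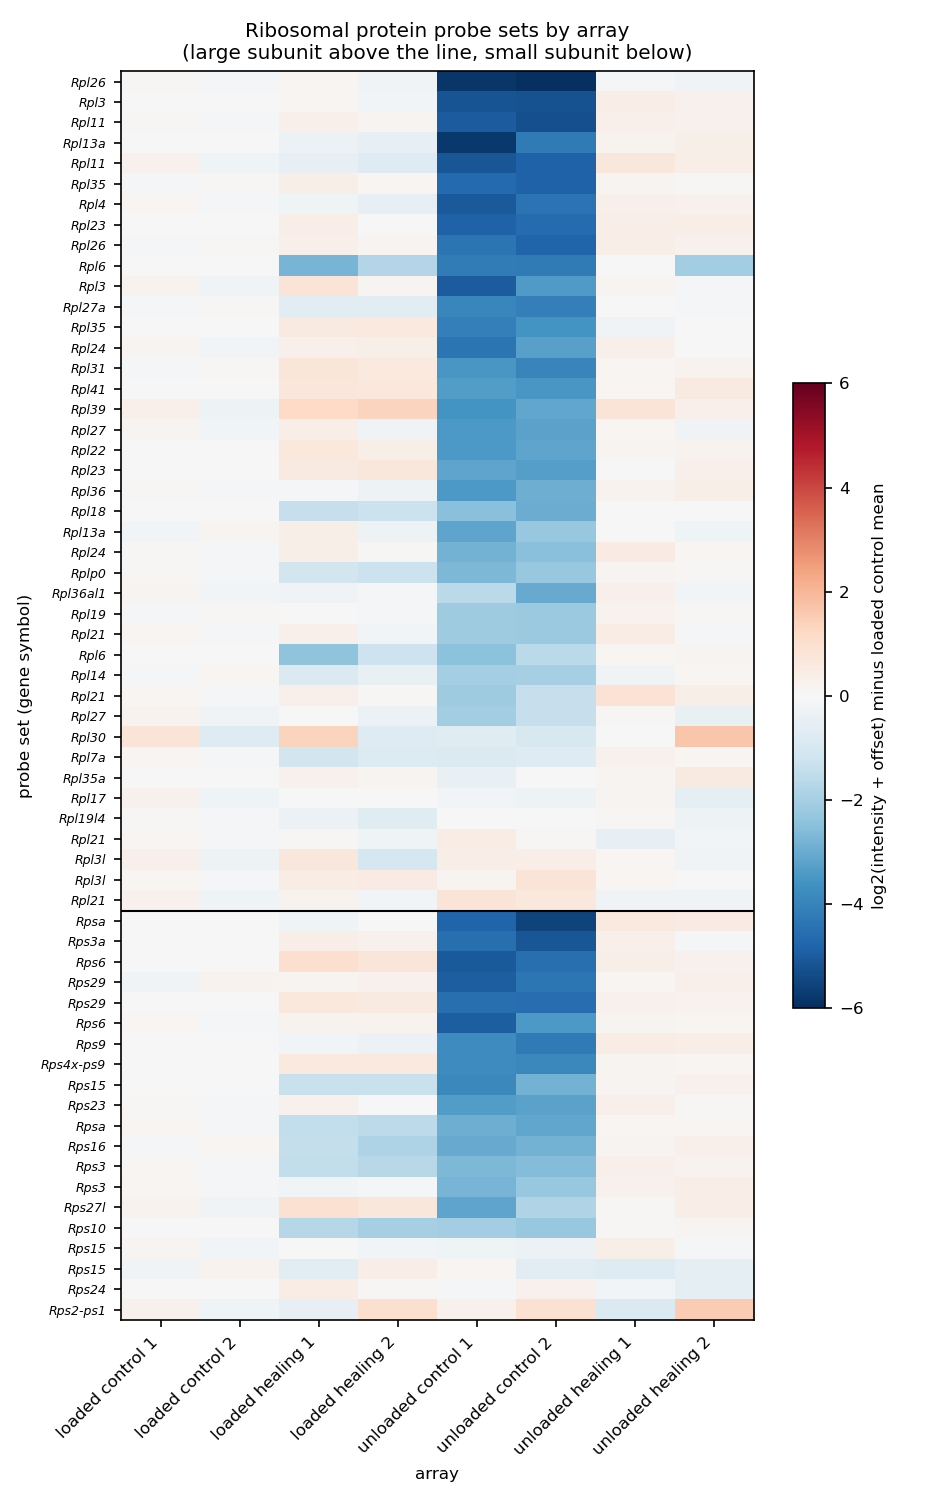
Log2 signal of the 61 tested ribosomal protein probe sets on each of the 8 arrays, minus its mean in the 2 loaded control arrays, shown as colour from -6 to 6, with large subunit probe sets above the line and small subunit ones below. Both unloaded control columns are far below 0 for most probe sets, while the loaded healing and unloaded healing columns lie near 0 for most.

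For the tests, 61 of the 63 members passed a filter on low signal, 41 of the large and 20 of the small subunit, among 5244 probe sets in all. A log2 difference is one of log2(intensity + 45.8), so folds at low signal come out too small, and a probe set was called at an adjusted p under 0.05 by limma (2 arrays per group in every comparison). The members left out were Rpl5, whose product carries 5S rRNA into the large subunit together with that of Rpl11, and 1 of the Rps2-ps1 probe sets. Rpl5 read 325 and 117 in loaded controls, 169 and 53.8 in loaded healing, 69.1 and 161 in unloaded controls, and 213 and 247 in unloaded healing. On this dim probe set unloaded healing lay above loaded healing and unloaded controls, and the other comparisons overlapped. A brighter probe set that Rpl5 shares with a copy is given further below.

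Ribosomal protein signal was far lower in unloaded than in loaded control ligaments, in both subunits. Of the 61 tested members, 49 fell and 0 rose, whereas 6.81% of all tested probe sets were called in either direction, 6.22% fell and 0.591% rose. The median log2 difference of the members was -3.18, against 0.23 over all tested probe sets. In the large subunit 33 of 41 probe sets fell (median -3.18), and in the small subunit 16 of 20 fell (median -3.15). The groups did not overlap in 50 members with the unloaded controls lower and in 4 with them higher, against a background of 17.2% lower and 34% higher. Many bright probe sets outside the family also fell. Among the 200 tested probe sets brightest outside the unloaded controls, 30 of 33 members were lower by more than 1 log2 unit. Of the 146 that list no ribosomal protein, 70 were lower by that much, 75 lay within 1 unit and 1 was higher (median -0.55). Less RNA per cell and fewer cells of a type cannot be told apart in whole ligament.

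Rplp0 forms the base of the large subunit's stalk, where elongation factors bind. It read 17082 and 15778 in loaded controls, 2518 and 3395 in unloaded controls, 7572 and 6653 in loaded healing, and 18632 and 17172 in unloaded healing. The unloaded controls were the lowest group and did not overlap any other. The difference between the control groups was -2.47 ± 0.18 (log2 ± SE, adjusted p = 5.65e-06), a 5.54-fold lower signal on the offset scale. Rpl11, the 5S rRNA partner of Rpl5, had 2 probe sets. The probe set X62146cds_g_at read 5701 and 5150 in loaded controls, 125 and 96.4 in unloaded controls, 6704 and 5987 in loaded healing, and 6752 and 6438 in unloaded healing. The unloaded controls again lay far below the other 3 groups, and the log2 difference between the controls was -5.13 ± 0.21 (adjusted p = 6.37e-08).

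The largest fall of a large subunit member was that of Rpl26, a protein near the exit of the nascent chain. Its probe set rc_AA893493_i_at read 6564 and 5902 in loaded controls, 62.5 and 42.1 in unloaded controls, 6809 and 5418 in loaded healing, and 5946 and 5366 in unloaded healing. Its 6 readings outside the unloaded controls lay close together and both unloaded controls were near the offset. The log2 difference was -6.01 ± 0.23 (64.3-fold lower, adjusted p = 4.17e-08), and the other probe set of Rpl26 gave -4.59 ± 0.21. Rpl3, a core protein near the site where peptide bonds form, fell by 5.22 ± 0.24 on the log2 scale, from 3492 and 3305 to 48.8 and 44.9.

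In the small subunit, Rpsa, also known as the laminin receptor, fell most on its probe set D25224_at. That probe set read 6722 and 6306 in loaded controls, 187 and 93.6 in unloaded controls, 5512 and 6474 in loaded healing, and 9838 and 9215 in unloaded healing. The log2 difference between the controls was -5.19 ± 0.25 (adjusted p = 2.68e-07). Rps3a, which lies beside the mRNA exit channel, fell by 4.84 ± 0.23 on the log2 scale, from 8766 and 9063 to 339 and 210. Rps6, the substrate of the S6 kinases downstream of mTOR, fell by 4.79 ± 0.20 on M29358_g_at, from 13344 and 12633 to 350 and 517, and by 4.20 ± 0.41 on M29358_at. Both Rps29 probe sets fell by 4.57 ± 0.13 and 4.65 ± 0.22. The pseudogene probe set Rps4x-ps9 fell by 3.82 ± 0.21, and the paralogues Rps27l and Rpl36al1 fell by 2.48 ± 0.44 and 2.32 ± 0.44.

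The smallest fall that passed was that of Rpl7a, at -0.81 ± 0.19 (adjusted p = 0.0269), from 6313 and 5206 to 3163 and 3343. The 12 tested members that did not pass were the single probe sets of Rpl17, Rpl19l4, Rpl30, Rpl35a and Rps24, 1 of Rps2-ps1, both of Rpl3l, 2 of the 4 for Rpl21 and 2 of the 3 for Rps15. Rpl19l4 read 48305 and 43584 in loaded controls, 35613 and 27460 in loaded healing, 44952 and 46615 in unloaded controls, and 48022 and 37691 in unloaded healing. Its control groups overlapped and differed by 0.00 ± 0.18, while Rpl19 itself fell by 2.19 ± 0.15. Rpl35a read 1974 and 1882 in loaded controls, against 1386 and 1916 in unloaded controls, a difference of -0.24 ± 0.24. Rpl3l, a form of Rpl3 known from skeletal muscle and heart, read 532 and 455 in loaded controls, against 561 and 874 in unloaded controls on rc_AA891037_at, at 0.47 ± 0.37. The motif at the annotated start was found in 9 of 31 matched genes with a called fall and in 2 of 4 tested genes without one, too few to compare.

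In unloaded rats, most members read higher in healing than in control ligaments. These controls had no sham surgery, so healing and the operation cannot be told apart here. Of the 61 members, 49 rose and 0 fell, beside 7.46% of all tested probe sets called in either direction, 6.41% that rose and 1.05% that fell. The median was 3.19, against -0.23 over all tested probe sets, with 33 of 41 large subunit probe sets called (median 3.19) and 16 of 20 of the small subunit (median 3.32). The groups did not overlap in 52 members with healing higher and in 5 with it lower (background 18.7% and 33.5%). This comparison and the previous one share the unloaded control arrays with opposite sign, so neither is independent support for the other. The values of the named members stand side by side: Rplp0 rose by 2.59 ± 0.18, beside -2.47 between the control groups, and Rpl26 rose by 5.87 ± 0.23, beside -6.01.

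Rpl3 rose by 5.54 ± 0.24 and Rpl11 by 5.53 ± 0.26 and 5.41 ± 0.21 on its 2 probe sets. In the small subunit, Rpsa rose by 5.73 ± 0.25 on D25224_at (adjusted p = 1.28e-07) and by 3.17 ± 0.19 on D25224_g_at. Rps6 rose by 5.07 ± 0.20 and 4.35 ± 0.41, and Rps3a by 4.96 ± 0.23. In each of these genes both unloaded healing arrays read above both unloaded control arrays.

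Unloaded healing and loaded control ligaments did not differ detectably in ribosomal protein signal. None of the 61 members was called by limma (0 higher, 0 lower), and 0 passed even an unadjusted p of 0.05, while 0.0763% of all tested probe sets were called (0.0572% higher, 0.0191% lower) and 291 of the 5244 passed unadjusted. The median log2 difference was 0.15, against 0.01 over all tested probe sets, and the members ranged from -1.03 to 0.84, with 46 above 0 and 15 below. The groups did not overlap in 32 members with unloaded healing higher and in 4 with it lower (background 17.6% and 14.6%). Rplp0 differed by 0.12 ± 0.18, Rps6 by 0.15 ± 0.41 and 0.29 ± 0.20, Rpl11 by 0.54 ± 0.26 and 0.28 ± 0.21, and Rpsa by 0.54 ± 0.25 and 0.13 ± 0.19. The widest values were -1.03 ± 0.57 for a probe set of Rpl6, 0.84 ± 0.82 for Rpl30 and -0.67 ± 0.52 for a probe set of Rps15, all with adjusted p of at least 0.935. With 2 arrays per group, small differences would not be detectable.

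**Figure D2:**
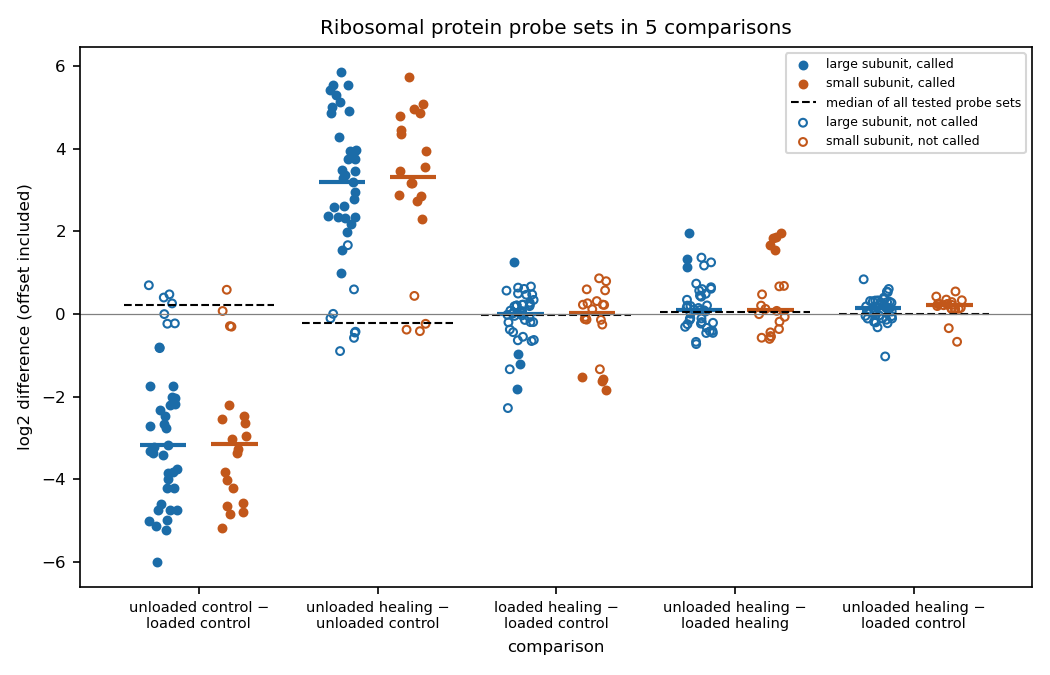
Log2 difference of the 61 tested ribosomal protein probe sets in the 5 pairwise comparisons, filled where limma called them, with bars at the medians of the large and small subunit and dashed lines at the median of all tested probe sets. The members sit near -3.18 and 3.19 in the comparisons that use the unloaded controls and near 0.01, 0.10 and 0.15 in the others.

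In loaded rats, healing changed a minority of ribosomal protein probe sets, mostly downward, with no shift of the family as a whole. Of the 61 members, 7 fell and 1 rose, beside 2.02% of all tested probe sets called in either direction, 0.992% that fell and 1.03% that rose. The median was 0.01, against -0.03 over all tested probe sets, and the middle part of the members, from the lower to the upper quartile, ran from -0.38 to 0.26. In the large subunit 3 probe sets fell and 1 rose, and in the small subunit 4 fell and 0 rose, a difference between subunits that was not tested. The groups did not overlap in 19 of the 61 members with healing higher and in 19 with it lower. Both shares were above the background of 19.4% and 20.3%.

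The called falls ran from -0.96 to -1.85 and came from both subunits. Rps10, a protein of the subunit's head, read 2740 and 2746 in loaded controls, 814 and 650 in loaded healing, 606 and 527 in unloaded controls, and 2921 and 3047 in unloaded healing. Loaded healing lay below loaded controls and unloaded healing without overlap and above unloaded controls. The difference was -1.85 ± 0.25 (3.61-fold lower, adjusted p = 0.00417). Rps16, whose tail reaches the decoding centre, read 6418 and 7389 in loaded controls, 2535 and 1898 in loaded healing, 802 and 913 in unloaded controls, and 7657 and 8638 in unloaded healing. The order of the groups was as in Rps10, and the difference was -1.63 ± 0.21 (adjusted p = 0.00383).

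Rps3, which lines the mRNA entry channel and also acts in DNA repair, fell by 1.58 ± 0.22 on X51536cds_at, from 3744 and 3332 to 1226 and 1088 (adjusted p = 0.00538). Rpsa fell by 1.53 ± 0.19 on D25224_g_at, from 8022 and 6694 to 2622 and 2406 (adjusted p = 0.00316). Each of these genes has a second probe set that did not pass: X51536cds_g_at of Rps3 read -0.14 ± 0.20, and D25224_at of Rpsa read -0.12 ± 0.25.

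In the large subunit, Rpl6 fell by 1.81 ± 0.39 on S71021_s_at, from 3595 and 3552 to 644 and 1498 (adjusted p = 0.0487), with its 2 healing arrays far apart. Rplp0 fell by 1.20 ± 0.18 (adjusted p = 0.00807) and Rpl7a, from 6313 and 5206 to 2663 and 3195, by 0.96 ± 0.19 (adjusted p = 0.0321). Rpl39, a small protein in the wall of the exit tunnel, was the 1 member that rose. It read 5739 and 3832 in loaded controls, 10750 and 11802 in loaded healing, 343 and 494 in unloaded controls, and 7976 and 5758 in unloaded healing. Both loaded healing arrays were above all others, and the difference from loaded controls was 1.26 ± 0.26 (adjusted p = 0.0455). Rps6 read 0.86 ± 0.20 (adjusted p = 0.0633) and 0.22 ± 0.41 on its probe sets, Rpl11 -0.63 ± 0.26 and 0.22 ± 0.21, and Rps29 0.60 ± 0.13 (adjusted p = 0.0575) and 0.22 ± 0.22, none of which passed.

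These 8 calls depended on the arrays and the scaling. Without loaded control 1 or 2 there were 2 calls each, and without loaded healing 1 or 2 there were 4 each. Scaling to the spike-in control probe sets moved the median of all tested probe sets from -0.03 to 0.34 and that of the members to 0.40. It gave 4 members higher and 1 lower in place of 1 and 7. Over all 5244 tested probe sets it gave 84 higher and 22 lower in place of 54 and 52, so the calls moved upward across the array. Under that scaling Rps10 still fell (-1.47, adjusted p = 0.0401), Rpl39 rose (1.66), Rps6 on M29358_g_at also rose (1.27), and Rpsa (D25224_g_at) and Rps16 read -1.13 and -1.23 without passing. With a variance prior that does not follow intensity, limma called 0 members, of the 23 that pass an unadjusted p of 0.05 in the model used here.

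**Figure D3:**
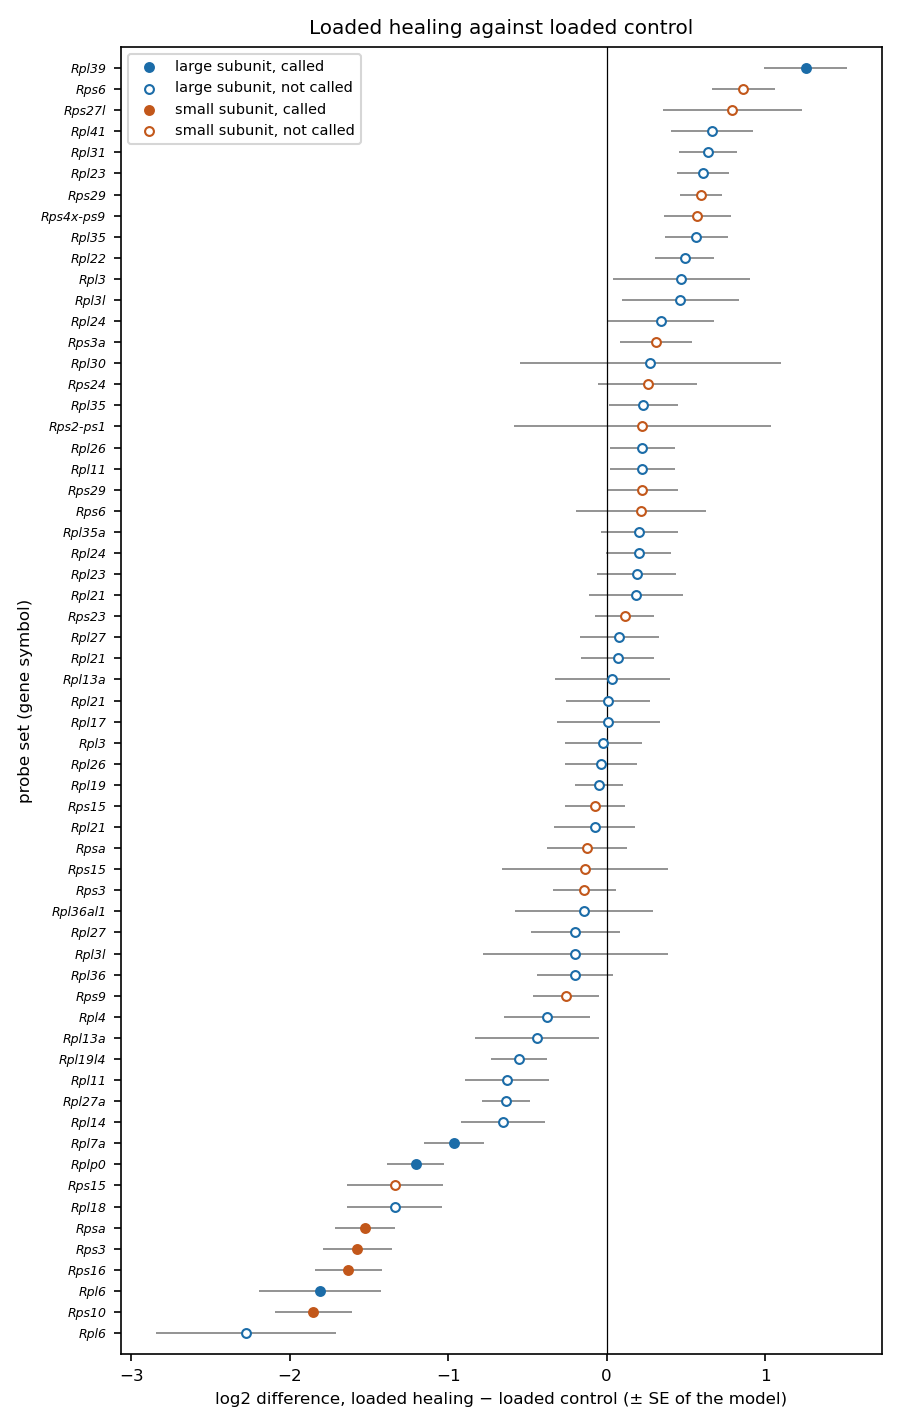
Log2 difference between loaded healing and loaded control for each of the 61 tested ribosomal protein probe sets, ordered by size, with bars of 1 SE, colours for the large and small subunit, and filled points where limma called them. Most points lie within 1 log2 unit of 0, with the called falls of Rps10, Rpl6, Rps16, Rps3, Rpsa, Rplp0 and Rpl7a on one side and Rpl39 on the other.

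Among healing ligaments, unloading raised 8 ribosomal protein probe sets and lowered 0. Of all tested probe sets, 1.62% were called in either direction, 0.763% rose and 0.858% fell. The member median was 0.10, against 0.06 over all, which spike-in scaling turned to -0.39 against -0.40. The groups did not overlap in 22 members with unloaded healing higher and in 15 with it lower (background 21.3% and 18.4%). The 3 calls of the large subunit were Rpl6 (1.95 ± 0.39, adjusted p = 0.0367), Rplp0 (1.33 ± 0.18, adjusted p = 0.00599) and Rpl7a (1.13 ± 0.19, adjusted p = 0.0168). The 5 of the small subunit were Rps10 (1.97 ± 0.25, adjusted p = 0.00311), Rps16 (1.87 ± 0.21, adjusted p = 0.00200), Rps3 (1.83 ± 0.22, adjusted p = 0.00258), Rpsa on D25224_g_at (1.66 ± 0.19, adjusted p = 0.00215) and Rps15 (1.55 ± 0.30, adjusted p = 0.0360).

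Rps15, a small subunit protein close to the decoding site, read 5807 and 5894 in loaded controls, 2262 and 2312 in loaded healing, 353 and 789 in unloaded controls, and 6596 and 6980 in unloaded healing on E01534cds_s_at. The comparison with loaded controls, -1.34 ± 0.30 (adjusted p = 0.0616), did not pass. This comparison shares the loaded healing arrays with the one before it, with opposite sign, so a low reading on those arrays enters both. Without any of the 4 healing arrays there were 5 calls in place of 8, under spike-in scaling 4, and without the intensity trend 0. Rps6 (-0.07 ± 0.41 and -0.58 ± 0.20), Rpl11 (1.17 ± 0.26 and 0.06 ± 0.21) and the other Rpsa probe set (0.67 ± 0.25) did not pass.

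Control probe sets for actin and GAPDH also read low on the loaded healing arrays, as did the spike-in controls. For the 3′ actin control the values were 1353 and 1597 there, 4393 and 4955 for loaded controls, 4786 and 5235 for unloaded healing, and 1284 and 1494 for unloaded controls. For the 3′ GAPDH control they were 1038 and 842.6 with loaded healing and 1872 to 2335 on the remaining arrays. The geometric mean of the spike-in controls was 24050 and 23980 with loaded healing and 27200 to 39890 on the remaining arrays. The part of these differences in the calls was not tested.

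The difference between healing and control ligaments in ribosomal protein signal was not the same in unloaded and loaded rats. Only the loaded controls had sham surgery, so a different effect of healing and the missing operation cannot be told apart here. The interaction is healing minus control in unloaded rats, minus the same in loaded rats. It was called higher for 48 of the 61 members and lower for 0. Of all tested probe sets 4.84% were called in either direction, 4.52% higher and 0.324% lower. The interaction's member median was 3.35, against -0.16 over all tested probe sets, with 33 large subunit calls (median 3.09) and 15 small subunit calls (median 4.18). The largest were those of Rpl11 (6.16 ± 0.37), Rpl26 (5.90 ± 0.32), Rpsa (5.85 ± 0.36) and Rpl13a (5.74 ± 0.56), followed in the small subunit by Rps15 (4.90 ± 0.43) and Rps16 (4.81 ± 0.30). For Rplp0 it was 3.80, and for Rps6 4.21 and 4.13. The interaction rests on the unloaded control arrays, and Rps27l was the member called in both comparisons with those arrays but not here.

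Probe sets of a gene mostly gave the same direction between the control groups but differed in size, and in the comparisons with loaded healing most genes had none called. There were 16 genes with at least 2 tested probe sets, 35 in all. Between the control groups, all probe sets were called in 13 genes, some in 2 and none in 1, and the values differed by more than 1 log2 unit in 10. Between unloaded and loaded healing or between loaded healing and loaded control, none of the genes had every probe set called, and 4 and 3 had some called and some not. The median distance between the lowest and highest probe set of a gene was 0.47 in loaded healing against loaded control, 0.67 between the healing groups, 1.29 between the control groups, 1.07 for healing in unloaded rats and 0.25 between unloaded healing and loaded control.

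Values of opposite sign more than 1 unit apart were found in Rps15, Rpl21 and Rpl6. For Rpl21, a large subunit protein, M27905_at read 9759 and 8125 in loaded controls, 2024 and 1864 in unloaded controls, and 11974 and 8314 in unloaded healing, while rc_AA849648_g_at read 1799 and 1221, 2550 and 2313, and 1284 and 1280. The former fell on the unloaded control arrays and the latter was highest there. The control groups differed by -2.17 ± 0.23 and 0.70 ± 0.27 on these probe sets, a distance of 2.87, of which the second did not pass. For healing in unloaded rats, X15216cds_s_at of Rpl21 rose by 2.35 ± 0.30 and rc_AA849648_g_at read -0.90 ± 0.27 (adjusted p = 0.0777), a distance of 3.25.

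Rps15 had the widest distances between the healing groups, between the control groups, for healing in unloaded rats and in the interaction. In unloaded rats E01534cds_s_at rose by 3.57 ± 0.30, rc_AA892895_i_at read -0.38 ± 0.52 and rc_AA892895_r_at read 0.44 ± 0.19, a distance of 3.94. The last of these read 14625 to 24017 over all 8 arrays and its control groups differed by -0.31 ± 0.19. Between the healing groups these 3 probe sets differed by 1.55, -0.54 and 0.20 in the same order, and only the first was called. Rpl6 had its disagreement between unloaded healing and loaded control, at -1.03 ± 0.57 and 0.14 ± 0.39. In unloaded healing, its rc_AA799672_s_at read 6863 and 1547 on the 2 arrays, while S71021_s_at read 3874 and 4030, so 1 array set that value.

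**Figure D4:**
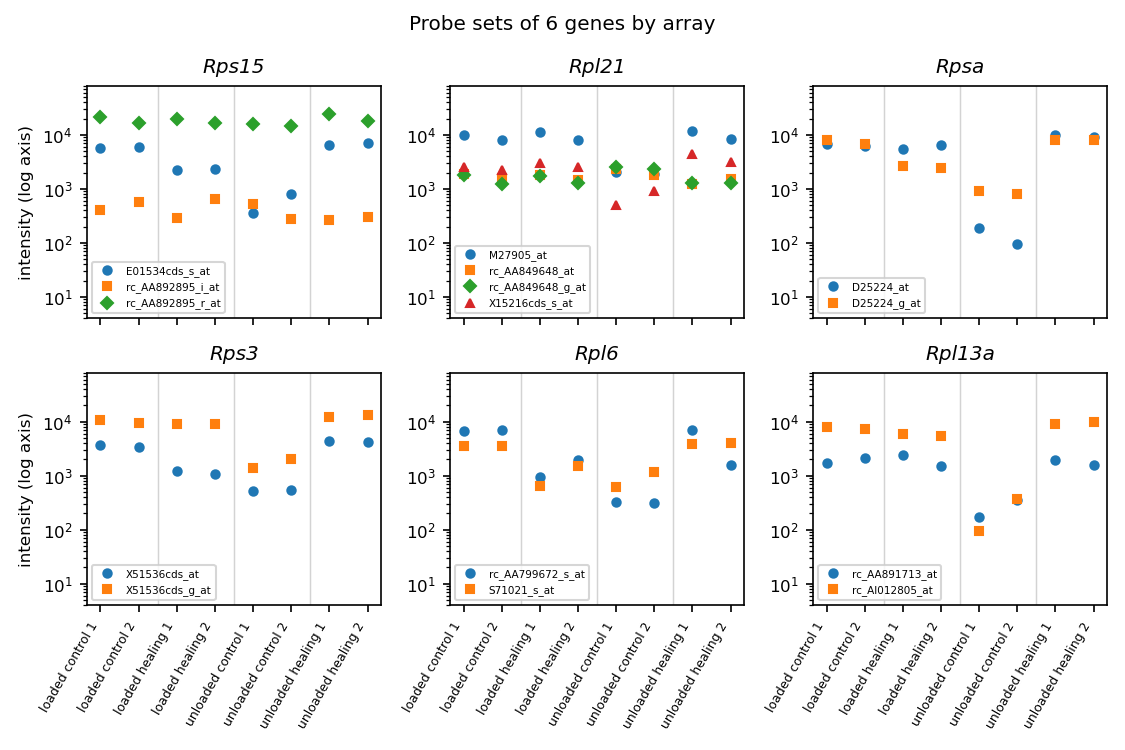
Signal intensity on a log axis on each of the 8 arrays for every tested probe set of Rps15, Rpl21, Rpsa, Rps3, Rpl6 and Rpl13a, with 1 marker shape per probe set and grey lines between groups. In Rps15 and Rpl21 some probe sets are low on both unloaded control arrays and others are not, and in Rpsa and Rps3 only 1 of 2 probe sets is clearly lower on the loaded healing arrays than in loaded controls.

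The array has pairs of probe sets whose names differ only by the letter g, and these pairs were compared after the values had been seen. Among members and probe sets that list a ribosomal protein beside other symbols there were 16 such pairs. In loaded healing against loaded control the probe set without g was the lower one in 13 of the 16, with differences from -2.94 to 1.40 log2 units over all pairs, and 6 pairs were more than 1 unit apart. X62145cds_at, which lists Rpl8 and its copies, fell by 2.45 and X62145cds_g_at read 0.49. X51706cds_at, for Rpl9 and its copies, fell by 2.11 and its partner read 0.46. X15013cds_at, which lists Rpl7a and Rsl1d1, fell by 3.53, from 1736 and 2198 to 126 and 129, and its partner fell by 0.96. The Rpsa pair ran the other way, at -0.12 without g and -1.53 with it. Between unloaded healing and loaded control 0 of the 16 pairs were more than 1 unit apart, and the median distance was 0.17.

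Probe sets that list several symbols, at least 1 of them a ribosomal protein, are not members but cover much of the rest of the family. There were 40 on the array, of which 39 were tested. Between the control groups 36 fell and 0 rose (median -3.14), against 6.22% and 0.591% of all tested probe sets. For healing in unloaded rats 37 rose and 0 fell (median 3.20), against 6.41% and 1.05%. In loaded healing 10 fell and 0 rose (median -0.17), against 0.992% and 1.03%. Among these falls were Rpl12 at -3.38 on X53504cds_at and -1.30 on X53504cds_g_at, Rps2 at -2.82 and Rps14 at -1.99. Between the healing groups 9 rose and 0 fell (median 0.54), against 0.763% and 0.858%. Between unloaded healing and loaded control 0 were called. Rplp2, the stalk protein without a probe set of its own, gave 7617 and 8700 in loaded controls, 5456 and 5547 in loaded healing, 1155 and 414 in unloaded controls, and 8192 and 9552 in unloaded healing on the probe set it shares with its copies. Its control groups differed by -3.46 (adjusted p = 8.73e-05).

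Several genes whose own probe set did not fall in unloaded controls had a shared probe set that did. For Rps24, M89646_at read 918 and 881 in loaded controls, against 838 and 1070 in unloaded controls, a difference of 0.07 ± 0.31. M89646_g_at, shared with a pseudogene, read 6416 and 7254 in loaded controls, against 525 and 352 in unloaded controls, a fall of 3.85. Rpl17 read -0.23 ± 0.32 alone. Of the 2 probe sets it shares with copies, X58389cds_s_at fell by 2.31 and X60212_i_at read -0.82 without passing (adjusted p = 0.226). Rpl30 read -0.83 ± 0.82 alone and -2.75 shared. Of the shared probe sets 1 read higher in unloaded controls, at 2.22 (adjusted p = 0.0623), and it lists the ribosomal RNA genes Rn18s and Rn45s beside Rpl4, B2m and other genes.

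Other parts of the translation machinery were followed through lists of genes. Of 9 listed elongation and termination factors, which move the ribosome along the mRNA or release the chain, 4 genes with 8 probe sets were tested. Between the control groups 5 of the 8 fell and 0 rose, among them Eef1a1, which delivers aminoacyl-tRNA (-4.64 ± 0.23), Eef2, which drives translocation (-3.41 ± 0.18 on rc_AI178750_at), and Eef1g, a subunit of the exchange factor (-3.00 ± 0.22). The 4 probe sets of Eef2 disagreed: rc_AA892801_at and rc_AA892801_g_at fell (-1.95 and -1.42), while rc_AA963674_at read 10913 and 10394 in loaded controls, against 10183 and 11092 in unloaded ones, and did not pass. Eef1a1 read 9546 and 7250 in loaded controls, 9680 and 9048 in loaded healing, 336 and 250 in unloaded controls, and 10637 and 7829 in unloaded healing on M81088_at. In unloaded rats 3 rose with healing and 0 fell. In loaded healing 3 fell and 0 rose, and between the healing groups 2 rose and 0 fell, including the second Eef1a1 probe set, rc_AI008852_at, at -2.75 ± 0.45 and 2.67 ± 0.45. Between unloaded healing and loaded control 0 were called, and in the interaction 5 were higher.

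Of the ribosome-linked proteins, Rack1, a scaffold on the small subunit, and Naca, a chaperone at the exit tunnel, were tested. Rack1 read 4684 and 4029 in loaded controls, 252 and 246 in unloaded controls and 4783 and 4224 in unloaded healing. Naca read 2176 and 2202 in loaded controls, 101 and 27.6 in unloaded controls and 2962 and 2998 in unloaded healing. They differed between the control groups by -3.90 ± 0.23 and -4.43 ± 0.33, rose with healing in unloaded rats and in the interaction, and were not called in the other comparisons.

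The remaining lists showed little change. Of 23 tested probe sets for 14 translation initiation factors, which load the mRNA, Eif5b alone fell between the control groups (-1.16 ± 0.30, adjusted p = 0.0457). The list's median was -0.06, 0 were called in any other pairwise comparison, and 2 were higher and 1 lower in the interaction. Of 13 probe sets for ribosome biogenesis and RNA polymerase I genes, Dkc1, the pseudouridine synthase of ribosomal RNA, rose with healing in unloaded rats (2.69 ± 0.53), and the list's median between the control groups was 0.74 with 0 called. Of 11 probe sets for mTOR, S6 kinase and Myc genes, Rheb, the activator of mTOR, rose in that same comparison (2.14 ± 0.53), and 0 were called between the control groups. Of 9 mitochondrial ribosomal proteins, which have no part in the cytosolic ribosome, Mrpl13 rose in unloaded rats with healing (1.85 ± 0.48). None of the mitochondrial ones was called between the control groups, where their median was 0.30.

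Markers of the tissue and of other cell types were read beside these results, and their part in them was not tested. Of 10 ligament fibroblast markers, 8 genes with 16 probe sets were on the array and 0 probe sets read 0 on any array. Their summed intensity was 118720 to 142050 in loaded controls, 122490 to 146500 in loaded healing, 9604 and 9807 in unloaded controls, and 65729 to 86398 in unloaded healing. Of the 16, 14 fell between the control groups and 10 rose with healing in unloaded rats. Much of the sum came from Col1a1, and single markers moved otherwise: in loaded healing 3 fell (Bgn at -1.38, Comp at -2.74 and Col1a1 on Z78279_at at -1.41), beside the called falls of ribosomal proteins. Between the healing groups 2 fell, Col1a2 at -1.99 and Col1a1 on Z78279_g_at at -1.06. Col1a1, the chain of type I collagen that defines ligament matrix, read 75949 and 59573 in loaded controls, against 699 and 763 in unloaded controls on M27207mRNA_s_at, and the ligament protein Thbs4 read 1544 and 1504 against 75.7 and 41.3. The defining markers of ligament were thus low on the unloaded control arrays.

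Macrophage markers (8 of 11 genes on the array, 0 at 0) summed to 7951 and 8108 in loaded controls, 29556 and 26531 in loaded healing, 5843 and 5192 in unloaded controls, and 8740 and 8928 in unloaded healing. Of their 8 tested probe sets, 3 rose in loaded healing, 3 fell between the healing groups and 3 fell between the control groups. Skeletal muscle markers (12 of 13 genes) summed to 10878 and 10710, 19652 and 14491, 5532 and 5683, and 15067 and 12244 in the same order of groups, and 2 of 10 tested probe sets fell between the control groups. Erythroid markers (4 of 8) summed to 4200 to 6384, 6218 to 7508, 4325 to 5569, and 9639 to 10115, and 1 of 6 fell between the control groups. Adipocyte (7 of 8), endothelial (5 of 7) and cartilage markers (5 of 7) had 0 calls between the control groups apart from Comp, a cartilage and ligament protein, which fell by 3.13. The adipocyte sums were 14433 to 16581, 18951 to 19545, 18217 to 18424, and 13062 to 16984. The endothelial sums were 4099 to 7441, 4133 to 7154, 8635 to 10539, and 4569 to 7594, and the cartilage sums 3533 to 4111, 1629 to 1994, 3090 to 3243, and 1823 to 2413.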

How the data were processed

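Gene expression was measured on 8 arrays of rat medial collateral ligament, 2 for each of 4 groups, grouped by their labels. The deposited table gives a linear intensity per probe set, which the authors had scaled between arrays, since the trimmed mean is 500.3 to 500.6 on every array. The summary method and software: not given in the sources used here. Of the value columns, 0 stayed unused. The platform's probe table supplied gene symbols, in which 7018 probe sets have 1 symbol, 308 several and 1473 none, and promoter windows came from RefSeq (GRCr8).

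With 59 control probe sets set aside, an offset of 45.8 (percentile 10 over the whole table) was added before log2, and dropping the dimmest 40% left 5244 probe sets. Using limma 3.58.1 (R 4.3.3), group means were estimated with an intensity trend in the variances, on 4 residual and 5.81 prior degrees of freedom. Tests were two-sided, with Benjamini-Hochberg adjustment across all 5244, and the model was tested on simulated data. Precision is limited by the number of arrays.

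The members, gene lists, tests and alternatives were chosen with earlier results of these data known. Named members were the 3 largest called and non-overlapping differences of each subunit and direction in a comparison (2 as values where none passed, and for the interaction the 3 largest), with Rplp0, Rplp1, Rplp2, Rpsa, Rps6, Rpl5, Rpl11 and Rps27a throughout, and the genes with the widest disagreement between probe sets. Members named beyond that rule illustrate a count and were chosen after their values were seen. Alternatives were quantile normalization, median centring, spike-in scaling, other offsets and filters, other variance priors, a replicate block, fits to fewer groups, 1 averaged value per gene, and omission of each array in turn.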

Additional observations from a re-analysis of the deposited data

Results flagged for a closer look

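By limma's interaction test, healing minus control differed between unloaded and loaded rats in 48 of the 61 tested ribosomal protein probe sets. The largest of these interactions in the large subunit were 6.16 log2 units for Rpl11 (X62146cds_at), 5.90 for Rpl26 (rc_AA893493_i_at) and 5.74 for Rpl13a (rc_AI012805_at). In the small subunit they were 5.85 for Rpsa (D25224_at), 4.90 for Rps15 (E01534cds_s_at) and 4.81 for Rps16. All of them involve the unloaded control arrays, whose rats, unlike the loaded controls, had no sham surgery. Rpl13a read 94.2 and 363 there, 7879 and 7422 in loaded controls, 5919 and 5345 in loaded healing, and 8892 and 9922 in unloaded healing.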

How the results depend on the processing

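The calls between the control groups, for healing in unloaded rats, in the interaction and between unloaded healing and loaded control kept within 1.5 times their count under every alternative run, and no named member that was called changed sign. Called in every leave-one-out fit were 45 of 49, 46 of 49 and 44 of 48 of the first 3, and in every other setting 46, 47 and 42. For loaded healing against loaded control (8 calls), median centring, spike-in scaling and no filter gave 5 each, no intensity trend gave 0, and leaving out an array gave 2 to 11. Only Rpsa (D25224_g_at) stayed called whichever array was left out, and 0 members under every other setting. Between the healing groups (8 calls), median centring gave 5, spike-in scaling 4, no intensity trend 0, and leaving out an array 5 to 9, with Rpsa, Rps10, Rps16 and Rps3 called throughout. The member median in loaded healing was 0.40 under spike-in scaling and -0.09 to 0.18 on leaving out an array, and between the healing groups -0.39 under spike-in scaling. For healing in unloaded rats it was 3.39 with median centring, 3.00 with spike-in scaling or a 4 times larger offset, and 3.36 with a floor in place of the offset. Between the control groups it was -2.98 with quantile normalization, -3.42 with median centring, -2.81 with the larger offset and -3.23 to -3.00 on leaving out an array. In the interaction it was 3.57 with median centring, 2.76 with spike-in scaling and 3.14 with the larger offset. The cause of these shifts was not tested. With 2 arrays per group, the replicate numbers were not taken to pair the arrays: deviations of same-numbered arrays correlated at 0.16 to 0.20 among the other 3 groups, whose same-numbered arrays thus deviated together to a small degree, but at 0.00 to 0.01 with the unloaded controls. With the replicate block there were 10 calls for loaded healing, 9 between the healing groups, 49 between the control groups, 49 for healing in unloaded rats, 48 in the interaction and 0 between unloaded healing and loaded control. Fits that omit an array leave 1 in that group, whose spread is then taken from the remaining groups. No detection calls were used, so how far a dim reading on the unloaded control arrays lies above background is unknown.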

Other observations

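The 5S ribosomal RNA control probe set of the array read 487 and 431 in loaded controls, 352 and 126 in loaded healing, 1155 and 1796 in unloaded controls, and 157 and 261 in unloaded healing. Both unloaded control arrays lay above the other 6.

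Tested member probe sets were also counted by whether their names begin with rc_, and the difference between these sets was not tested. In loaded healing, of the 26 with rc_, 1 was higher and 0 lower, and of the other 35, 0 were higher and 7 lower, with medians of 0.02 and 0.01. Of all tested probe sets, 1.03% were higher and 0.992% lower in that comparison. Between the healing groups 0 of the 26 and 8 of the 35 were called, with medians of -0.11 and 0.42. There 0.763% of all tested probe sets were higher and 0.858% lower.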
